A study of Mus musculus with 4 samples.

Results

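Human FOXP3-positive T cells were examined in single-cell RNA sequencing data from humanised mice. A cell was taken as a member when over 50% of its UMIs (unique molecular identifiers, each counting 1 captured transcript) came from human genes and it held at least 500 human genes, at least 1 UMI of CD3D, CD3E or CD3G, at least 1 UMI of FOXP3, and no UMI of CD8A, CD8B or MS4A1. This gave 1117 cells of the 17842 human cells with at least 500 genes, of which 393 came from naïve blood, 464 from sham blood, 246 from SCI blood and 14 from the injured cord. The cells were thus selected on their own measured UMIs of FOXP3, CD3, CD8 and MS4A1 genes. The hosts were huNSG-SGM3 mice. They were of the NOD.Cg background with the Prkdcscid and IL2rgtm1Wjl alleles, lack T, B and NK cells of their own, and carried the transgene Tg(CMV-IL3,CSF2,KITLG)1Eav/MloySzJ, in which the CMV promoter drives human IL-3, GM-CSF and stem cell factor. All had received human cord blood CD34+ cells after irradiation. All groups were of this genotype and 15 weeks of age per the labels. Naïve mice had no surgery (male hosts), sham mice had a T9 laminectomy (male hosts) and SCI mice had a T9 spinal cord contusion (hosts of both sexes, pooled), and the operated mice were sampled at 7 days post-injury (dpi). Live human CD45+ cells pooled from different animals were sorted into 1 blood library for each condition and 1 cord library for SCI, so that no comparison between conditions has a replicate, and in the comparisons with SCI host sex and condition cannot be told apart. The labels do not say which cord blood donors each library holds. In every comparison between conditions a difference in donor and the condition therefore cannot be told apart either.

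Regulatory T cells (Tregs) restrain the activation of other lymphocytes. The transcription factor FOXP3 is required for their identity, the high-affinity IL-2 receptor chain IL2RA (CD25) allows them to take up IL-2, and the checkpoint receptor CTLA4 removes costimulatory ligands from antigen-presenting cells. In humans, activated conventional CD4+ T cells can also transcribe FOXP3 and IL2RA for a time. Circulating Tregs are of interest after SCI because the injury is followed both by inflammation and by a systemic immune depression.

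The 3 blood libraries held 29598660 to 33055559 human UMIs and 4897 to 6592 human cells with at least 500 genes, and the cord library 1489677 human UMIs and 127 such cells. The median depth of FOXP3-positive T cells was 3347 UMIs for naïve blood, 4458 for sham and 4172 for SCI, so that the naïve library was the shallowest. Over all pairs of libraries 38 cell barcodes were shared, and none was shared between FOXP3-positive T cells. Markers of cells other than T cells were low with a few exceptions that are given beside the results they touch. The naïve library stood apart by immunoglobulin RNA in T cells, whose source was not tested. IGHM was detected in 53.9% of its FOXP3-positive T cells, compared to 14.7% of those from sham and 12.2% of those from SCI blood.

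The share of FOXP3-positive T cells differed between the blood libraries. They were 8.23% of CD3-positive cells in naïve blood (393 of 4776, 95% exact binomial interval 7.46 to 9.04), 11.4% in sham blood (464 of 4087, 10.4 to 12.4) and 4.80% in SCI blood (246 of 5124, 4.23 to 5.42), and the 3 intervals did not overlap. The SCI share was thus 0.423 times the sham share and 0.583 times the naïve share. In the injured cord 14 of 79 CD3-positive cells met the definition (17.7%, 10.0 to 27.9), but cord members were deeper (median 9657.5 UMIs), and after thinning to 2000 UMIs per cell 5 of 71 did (7.04%, 2.33 to 15.7), an interval that overlapped that of SCI blood treated in the same way. These intervals cover counting error only and say nothing of the spread between animals, which 1 library per condition does not give.

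Detection of FOXP3 depends on depth, and a single FOXP3 UMI was all that 67.7%, 60.6% and 73.6% of the naïve, sham and SCI members carried. When each cell was thinned to 2000 UMIs before the definition was applied, the shares were 5.44% (241 of 4427), 6.45% (254 of 3935) and 2.64% (129 of 4884) in naïve, sham and SCI blood, with the interval of SCI still below both others and those of naïve and sham overlapping. With at least 2 FOXP3 UMIs required, the shares were 2.66%, 4.48% and 1.27%. Set against all CD3-positive cells without CD8A, CD8B and MS4A1, a denominator that other T cell subsets move less, they were 11.02%, 15.7% and 7.92%. In B cells, which should lack FOXP3, a FOXP3 UMI was found in 0 of 1266, 2 of 581 and 0 of 917 cells at median depths of 3611.5, 5747 and 4874 UMIs, and the counts of 0 allow shares of up to 0.237% and 0.327%.

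**Figure D1:**
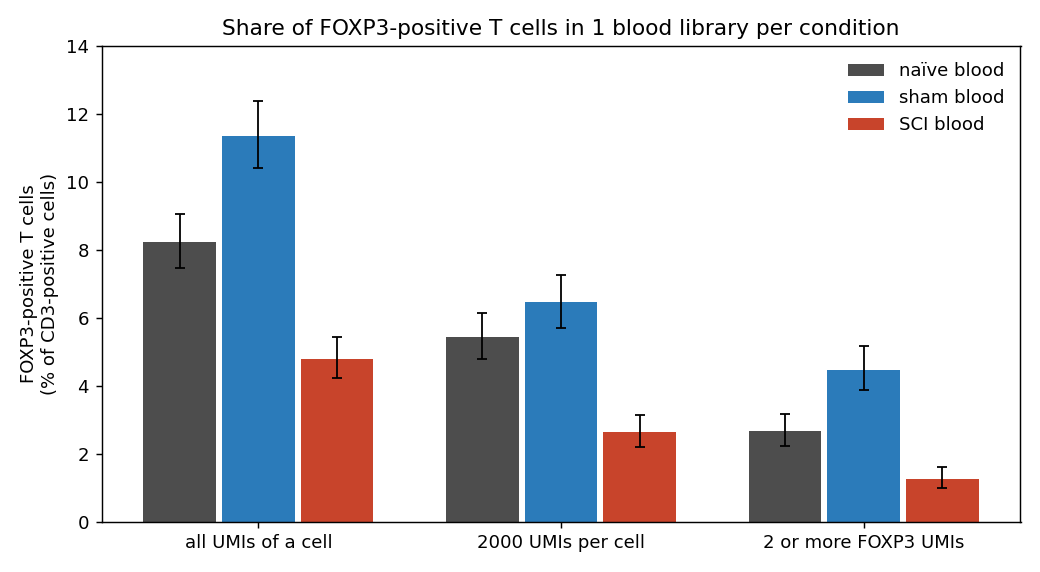
Share of FOXP3-positive T cells among CD3-positive cells (y axis, %) in naïve, sham and SCI blood, 1 library each, with all UMIs of a cell, after thinning to 2000 UMIs per cell, and with at least 2 FOXP3 UMIs required. Error bars are 95% exact binomial intervals for counting error only; SCI is lowest under all 3 definitions, from 4.80% to 1.27%, and naïve and sham overlap after thinning.

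The cell type label was checked against IL2RA, CTLA4 and PTGIR, markers that were chosen with these data known and are no independent evidence. At 2000 UMIs per cell, at least 1 of these 3 genes was detected in 48.5% of the naïve, 50% of the sham and 49.2% of the SCI members. The corresponding shares were 14.8%, 15.5% and 9.61% in T cells without a FOXP3 UMI, and 2.62%, 2.24% and 2.74% in B cells. Members just inside the threshold, with 1 FOXP3 UMI, showed at least 1 of the 3 genes in 43.5%, 45.2% and 45.5% of cells, and those with 3 or more FOXP3 UMIs in 58.1%, 62.1% and 73.9%. FOXP3-positive T cells thus carried the markers of the label more often than other T cells in each blood library. The remaining members showed none of the 3 at this depth, FOXP3-negative T cells may include Tregs in which no FOXP3 transcript was captured, and in the cord 35.7% of the 14 members showed at least 1.

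**Figure D2:**
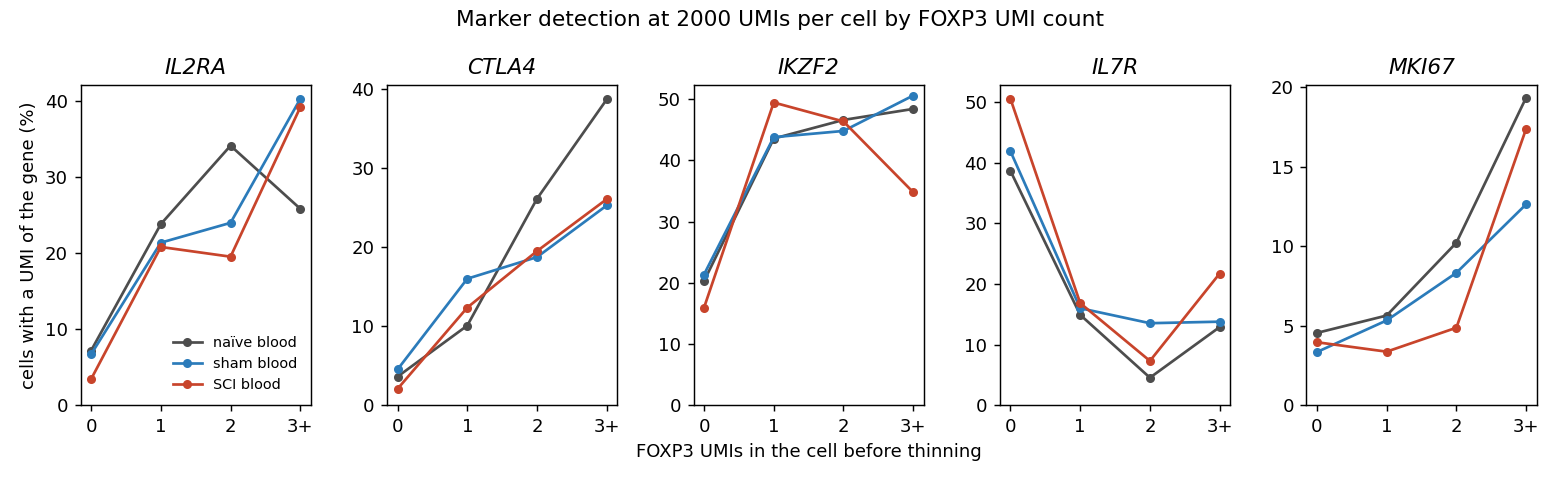
Share of cells with a UMI of IL2RA, CTLA4, IKZF2, IL7R or MKI67 (y axis, %) after thinning each cell to 2000 UMIs, by the number of FOXP3 UMIs before thinning (x axis), for T cells without CD8 and MS4A1 UMIs in each blood library. IL2RA, CTLA4 and IKZF2 are detected more often, and IL7R less often, in cells with 1 FOXP3 UMI than in those with none; the bins with 3 or more FOXP3 UMIs hold 31, 87 and 23 cells in naïve, sham and SCI blood.

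Helios (IKZF2), a transcription factor found in most thymus-derived Tregs, was detected in 44.7%, 45.3% and 47.5% of FOXP3-positive T cells at 2000 UMIs, against 20.3%, 21.3% and 15.9% of FOXP3-negative T cells and 3.93%, 4.65% and 5.59% of B cells. The inhibitory receptor TIGIT was detected in 39.2%, 39.0% and 31.4% of FOXP3-positive T cells. The IL-7 receptor chain IL7R, which is low on Tregs, was found in 12.3%, 15.1% and 15.7%, against 38.7%, 41.9% and 50.6% of FOXP3-negative T cells. The FOXP3-negative shares of IL7R lay above every FOXP3-positive share in all 3 blood libraries. CD4 itself is captured poorly and was seen in 37.7%, 45.3% and 49.6% of members without thinning.

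To describe how these cells differ from other T cells, UMIs were summed per library over FOXP3-positive and over FOXP3-negative T cells (CD3-positive, without CD8A, CD8B, MS4A1 or FOXP3 UMIs) and tested with edgeR's quasi-likelihood test with the library as a block. Of 12191 genes tested, 1173 were higher (9.62%) and 932 lower (7.64%) in FOXP3-positive T cells at an adjusted p under 0.05. The genes of the definition were left out. The 2 sums of a library share its animals, reagents and background RNA, and the p-values measure the spread over 3 libraries.

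FOXP3-positive T cells were enriched for the Treg programme. Of 23 Treg identity genes, 21 were higher and none lower, with a median log2 difference of 1.68 against -0.01 over all genes tested. The markers IL2RA, CTLA4 and PTGIR belong to this list, which was written with earlier results of these data known. CTLA4 was measured at 174, 143 and 103 CPM (counts per 1000000 UMIs of the summed cells) in FOXP3-positive T cells of naïve, sham and SCI blood, compared to 26.9, 28.6 and 14.3 CPM in FOXP3-negative T cells (log2 difference 2.61 ± 0.11 SE, adjusted p = 8.0e-11, edgeR). IL2RA was at 217, 226 and 186 CPM against 49.1, 43.0 and 26.6 CPM (2.45 ± 0.10, adjusted p = 8.0e-11, edgeR). For both genes every FOXP3-positive value exceeded every FOXP3-negative value. PTGIR, the prostacyclin receptor, was at 122, 122 and 154 CPM against 43.0, 42.4 and 38.2 CPM (1.70 ± 0.11).

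Of the TNF receptor family genes in the list, which also held TNFRSF9 and CD27, 3 that are used as Treg markers are given here. TNFRSF1B (TNFR2), through which TNF expands Tregs, was at 531, 416 and 338 CPM against 126, 106 and 89.6 CPM (2.02 ± 0.06, adjusted p = 2.2e-12, edgeR). TNFRSF18 (GITR) was at 551, 452 and 316 CPM against 144, 140 and 81.4 CPM (1.88 ± 0.07). TNFRSF4 (OX40) was at 573, 524 and 458 CPM against 176, 208 and 116 CPM (1.68 ± 0.09). All 3 receptors were separated without overlap. Helios was higher by 1.29 ± 0.07, its relative IKZF4 (Eos) by 1.76 ± 0.19, and LAYN, a hyaluronan receptor reported on activated Tregs, by 3.71 ± 0.35. LRRC32 (GARP), which tethers latent TGF-beta on the surface of activated Tregs, was higher by 2.82 ± 0.60 at only 2.38 to 6.71 CPM. The chemokine receptor CCR8 (0.18 ± 0.24, adjusted p = 0.69, edgeR) and FCRL3 (0.57 ± 0.20, adjusted p = 0.060) did not pass.

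**Figure D3:**
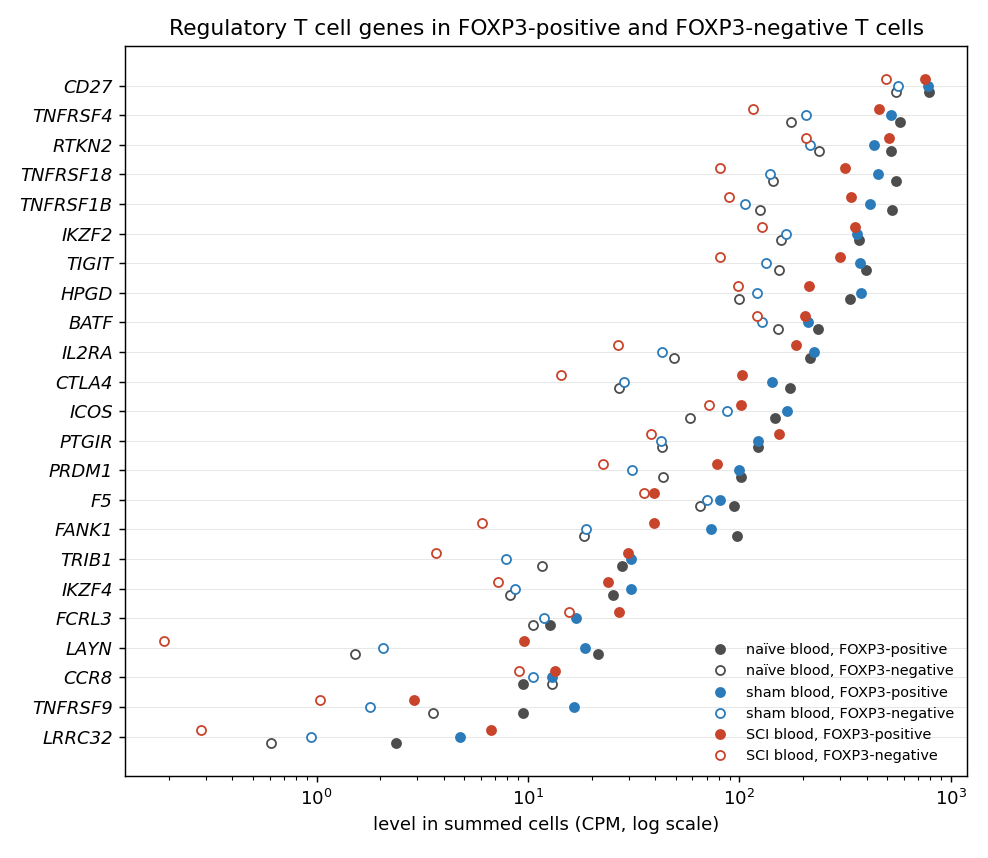
Level (CPM, log axis) of the 23 Treg identity genes in FOXP3-positive (filled) and FOXP3-negative (open) T cells of naïve, sham and SCI blood, 1 point per library, with no error bars. The filled points lie to the right of the open points of the same library for nearly every gene; CCR8 and FCRL3 are the 2 genes that did not pass the test.

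Outside that list, the highest differences by the ranking rule included LGMN (legumain, a lysosomal protease), at 65.7, 74.5 and 51.8 CPM in FOXP3-positive against 13.8, 7.69 and 6.80 CPM in FOXP3-negative T cells (2.84 ± 0.18, adjusted p = 7.3e-09, edgeR). It was followed among genes of known function by ETV7, a transcription factor of the ETS family (2.01 ± 0.14), GADD45A, a stress-induced growth arrest gene (1.99 ± 0.13), and GBP5, a guanylate-binding protein (1.92 ± 0.09). The transcripts LINC01943, AC005224.3 and C15orf53 were also among the 12 highest, with differences of 2.28, 1.87 and 1.84.

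Genes of conventional helper cells were lower. Of 9 such genes that could be tested, 7 were lower and none higher, with a median of -2.28. Against only those FOXP3-negative T cells that held a CD4 UMI, 7 of 9 were lower and 1 was higher (median -2.04). IL7R was at 101, 140 and 124 CPM against 493, 601 and 764 CPM (-2.28 ± 0.08, adjusted p = 1.2e-11, edgeR), and CD40LG, the ligand through which helper cells stimulate B cells, was at 13.5, 13.4 and 16.3 CPM against 101, 118 and 112 CPM (-2.95 ± 0.13). FOXP3-positive values lay far below FOXP3-negative values for both. No UMI of IL2, CSF2, IL3, IL5, IL13, IL17A or IL22 was counted in the 1103 members from blood. TNF itself did not pass the test, at 34.1, 28.6 and 30.7 CPM against 39.2, 33.3 and 32.3 CPM.

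Genes of naïve and recirculating T cells were mixed, with 10 of 16 lower and 2 higher (median -0.68). The transcription factor TCF7 was at 129, 118 and 134 CPM against 507, 553 and 589 CPM (-2.09 ± 0.07), and the lymph node homing receptor CCR7 at 177, 189 and 103 CPM against 315, 335 and 296 CPM (-0.97 ± 0.10). LRRN3, a gene of naïve T cells, was at 1.58, 3.03 and 2.88 CPM against 30.8, 41.9 and 82.5 CPM (-4.17 ± 0.24). MAL, a membrane protein of T cells, was higher (0.98 ± 0.06).

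Among 15 tested mediators of suppression, ENTPD1 (CD39, which degrades extracellular ATP), HAVCR2 (TIM-3) and LAG3 were higher and GZMB was lower. ENTPD1 was at 105, 108 and 72.9 CPM against 44.8, 55.3 and 21.2 CPM (1.26 ± 0.13). LAG3 lost its call without the naïve library. TGFB1 was at 310, 255 and 284 CPM against 264, 257 and 295 CPM and was not called. IL10 was counted at 0.79 CPM in naïve members and at 0 in those of sham and SCI blood. No GZMB UMI was counted in the members from blood, which is at least 18.6-fold lower than the 12.1 CPM of FOXP3-negative T cells (floor of 3 counts over the 3 libraries). Cytotoxic genes as a group were lower, with 8 of 9 called (median -3.65), among them NKG7 (-3.84 ± 0.17) and GZMK (-3.30 ± 0.15). Against only those FOXP3-negative T cells that held a CD4 UMI, 4 of 5 were lower and 1 was higher (median -1.30).

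Several chemokine receptors that direct T cells to inflamed tissue were higher in FOXP3-positive T cells, with 9 of 18 homing genes higher and 3 lower. CXCR6 was at 34.1, 19.5 and 13.4 CPM against 4.17, 4.50 and 4.63 CPM (2.32 ± 0.27), CXCR3 at 112, 75.4 and 131 CPM against 54.0, 40.8 and 64.2 CPM (1.02 ± 0.09), and CCR4 at 141, 146 and 107 CPM against 93.7, 87.2 and 64.3 CPM (0.72 ± 0.08). The skin-homing receptor CCR10 was lower (-2.03 ± 0.24). Of 15 genes of IL-2 and STAT5 signalling, 8 were higher and 3 lower, the higher ones including IL2RB (1.38 ± 0.15), PIM2 (0.99 ± 0.09), BCL2 (0.97 ± 0.16) and the STAT5 target CISH (0.76 ± 0.17, not called without the sham library), and the lower ones including MYC (-1.14 ± 0.14).

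MHC class II transcripts, which human T cells make on activation, were higher: HLA-DPA1 by 0.81 ± 0.09, HLA-DRB1 by 0.87 ± 0.12 and CD74, the invariant chain, by 0.68 ± 0.08. CD79A and CD79B, 2 markers of the B cell list, were higher as well (0.94 ± 0.16 and 0.48 ± 0.08), while the other 8 genes of that list summed to little (the list held 152 to 180 CPM in members against 6600 to 7829 CPM in B cells). The part of B cell RNA in the class II values was not tested. HLA-DRA (0.42 ± 0.11) was at -0.087 when only FOXP3-negative T cells with a CD4 UMI were used for comparison.

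Proliferation genes were higher in FOXP3-positive T cells, with 21 of 22 cell cycle genes called (median 1.02; MCM7 did not pass). MKI67 was at 225, 301 and 223 CPM against 119, 83.5 and 115 CPM (1.31 ± 0.13, adjusted p = 1.6e-06, edgeR). Cell cycle RNA was concentrated in few cells: 13.0%, 12.9% and 12.2% of members in naïve, sham and SCI blood held 10 or more UMIs of the list, and these held 83.6%, 89.9% and 85.8% of its UMIs. Against FOXP3-negative T cells with a CD4 UMI, 16 of the 22 genes were called and the median was 0.47, and after thinning to 2000 UMIs 15 were called at a median of 0.75. At that depth MKI67 was detected in 7.90%, 7.33% and 4.96% of members, against 4.55%, 3.35% and 3.96% of FOXP3-negative T cells. In members with 1 FOXP3 UMI it was detected in 5.65%, 5.34% and 3.37%. Members with 10 or more UMIs of the list had median depths of 7973, 14060.5 and 13419 UMIs, against 3160, 4299.5 and 4006 in the others. Detection of FOXP3 depends on depth, this thinning followed the selection of cells, and the part of depth was not tested.

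Among lists of other cells, all 9 tested basophil and mast cell genes were lower, 1 of 10 myeloid genes was lower, and of 9 PD-1 helper T cell genes 1 was higher and 3 lower. The basophil and mast cell calls depended on the comparison, with 0 of 5 lower against FOXP3-negative T cells with a CD4 UMI (median 0.14), 2 of 9 with DESeq2, and 2 of 7 without the sham library or without the library block. Myeloid calls ran from 10 of 10 lower against cells with a CD4 UMI to 5 of 10 higher with at least 2 FOXP3 UMIs. Lower calls of immunoglobulin genes rested on a single library. The plasma cell list summed to 20616 CPM in FOXP3-negative T cells of naïve blood, against 40.6 and 47.2 CPM in those of sham and SCI blood. Whether that naïve class held cells other than T cells was not tested. JCHAIN was at 32.5 CPM in FOXP3-positive against 1247 CPM in FOXP3-negative T cells of naïve blood, but between 1.501 and 2.88 CPM in both classes of sham and SCI blood, and its log2 difference of -4.95 became 0.37 without the naïve library. IGLC2 and IGLC3 lost their calls in the same way.

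Type I interferon genes are induced by interferon alpha and beta and serve antiviral defence. Of 36 tested, 12 were higher and 5 lower in FOXP3-positive T cells, with a small median of 0.15. Both shares lay above the backgrounds of 9.62% higher and 7.64% lower. Without the library block 3 were higher and 2 lower. ISG20 (0.68 ± 0.05), HERC5 (0.91 ± 0.09) and EPSTI1 (0.63 ± 0.06) were higher, and IFITM1 (-0.76 ± 0.07) and IFITM2 (-0.93 ± 0.06), membrane proteins that block viral entry, were lower. Genes of the glucocorticoid and adrenergic response were lower in 7 of 14 cases and higher in 1, among them FKBP5 at 19.8, 33.8 and 23.97 CPM against 107, 141 and 114 CPM (-2.16 ± 0.11) and the glucocorticoid receptor NR3C1 (-0.75 ± 0.09). Of 29 genes of T cell receptor signalling 9 were higher and 7 lower, of 18 genes of activation and migration 8 and 4, of 20 immediate early genes 7 and 2, of 19 TNF and NF-kB genes 5 and 2, of 15 MHC class I genes 5 and 3, and of 15 heat shock genes 1 and 3. Genes induced by interferon gamma were higher in 6 of 15 cases and lower in none. Of 32 genes of oxidative phosphorylation, 2 were higher and 1 lower, and of 14 genes of the TGF-beta pathway 2 were higher and 2 lower, among them the receptor TGFBR2 (-1.63 ± 0.14).

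The comparisons between conditions ask what laminectomy alone and the cord lesion added to it did to circulating Tregs. With 1 library per condition they have no test. Log2 ratios of CPM are given with exact 95% intervals for counting error, and a gene counted as higher or lower when it differed by at least 1.5-fold and the 2 libraries together held 50 or more of its counts. By this rule 289 genes (3.85%) were higher and 241 (3.21%) lower in sham than in naïve members, 190 (3.02%) higher and 297 (4.73%) lower in SCI than in naïve, and 207 (2.82%) higher and 397 (5.41%) lower in SCI than in sham. All 3 comparisons share libraries and are not independent of each other. On counts per cell in place of CPM, which carries the difference in depth, the splits became 4315 higher and 16 lower, 1490 and 60, and 67 and 1008, as the median over all genes shifted by 0.63, 0.38 and -0.25.

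Interferon-stimulated genes were lower in Tregs of SCI blood than in those of either control. Of 36 type I interferon genes, 18 were at least 1.5-fold lower in SCI than in sham members and none higher (median -0.58, against -0.02 over all genes), and 12 of 34 were lower and 1 higher in SCI than in naïve members (median -0.48). Sham and naïve members differed less, with 3 of 36 higher and none lower (median 0.07). FOXP3-negative T cells of the same libraries had medians of -0.64, -0.40 and 0.23 for SCI over sham, SCI over naïve and sham over naïve, and 21 of their genes were at least 1.5-fold lower in SCI than in sham.

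ISG15, a ubiquitin-like protein, was at 1805, 1686 and 913 CPM in naïve, sham and SCI members, a log2 ratio of -0.88 for SCI over sham (95% counting interval -0.99 to -0.78). At 2000 UMIs per cell it was detected in 85.6%, 87.7% and 64.5% of members. MX1, a GTPase that blocks viral replication, was at 743, 805 and 386 CPM (-1.06, -1.22 to -0.90) and detected in 63.8%, 69.2% and 38.0%. IFI44L was at 168, 274 and 58.5 CPM (-2.22, -2.63 to -1.85) and IFIT1 at 153, 149 and 71.0 CPM (-1.06, -1.45 to -0.70). For these 4 genes the SCI library was the lowest. The lower levels were spread over many cells, since the 10 members with the most interferon UMIs held 9.80%, 8.25% and 13.0% of the list's UMIs.

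Some members of the list departed from this. IFI27 was at 19.0, 133 and 56.6 CPM, highest in sham blood, where 12 of 464 members held 80.4% of its UMIs. IFITM1 and IFITM2 were at 124, 162 and 151 CPM and at 388, 387 and 421 CPM, and IRF9 at 119, 91.9 and 119 CPM. The median of the list stayed below 0 for SCI against both controls under every alternative run, between -0.81 and -0.47 against sham and between -0.52 and -0.08 against naïve blood. Of the genes induced by interferon gamma, 2 of 14 were lower in SCI than in sham and none of 12 in SCI than in naïve members. GBP1 was at 239, 273 and 182 CPM while GBP5 was at 210, 236 and 219 CPM.

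**Figure D4:**
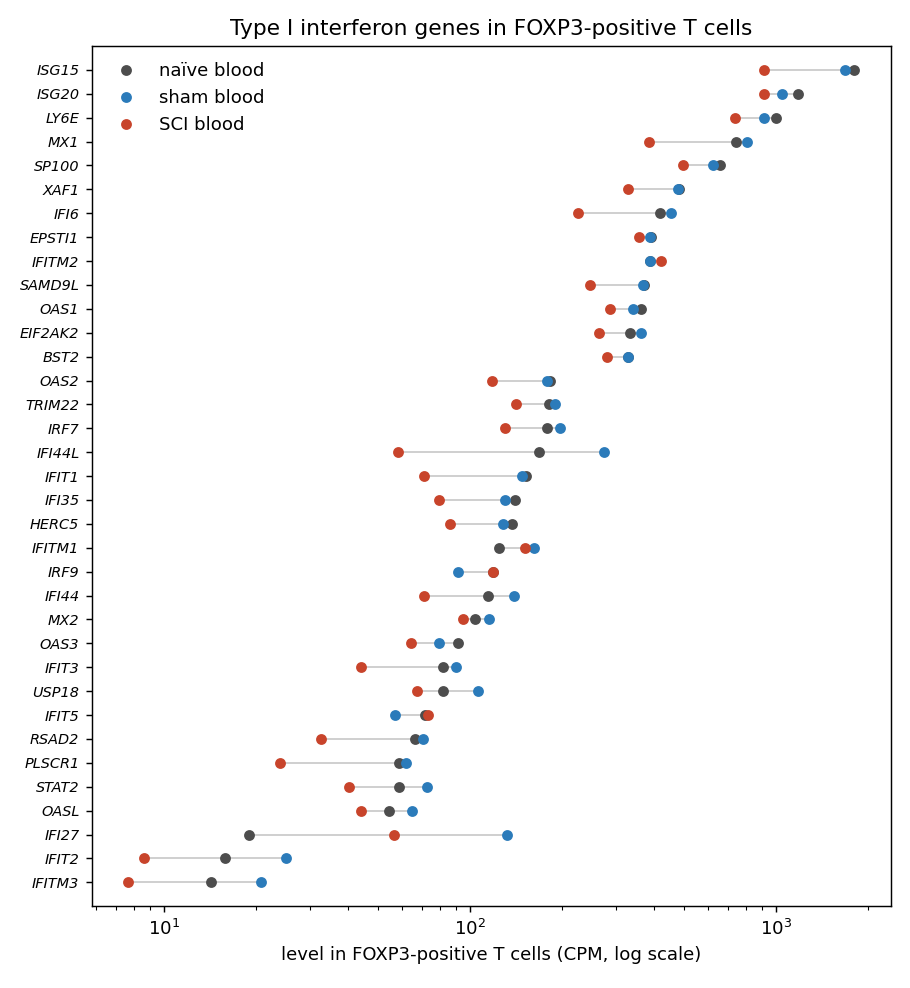
Level (CPM, log axis) of type I interferon genes in FOXP3-positive T cells of naïve, sham and SCI blood, 1 point per library, with no error bars; grey lines span the 3 values. SCI is the lowest point for most genes, as for ISG15, MX1 and IFI44L, and IFI27 is highest in sham blood.

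Parts of the Treg programme were also lower in SCI blood. Of 18 measured identity genes, 6 were at least 1.5-fold lower and none higher in SCI than in naïve members (median -0.35), and 5 of 20 were lower and 1 higher in SCI than in sham (median -0.30). Sham and naïve members were close, with 1 of 21 higher and none lower (median -0.03). FOXP3-negative T cells showed lower levels of the same list, with medians of -0.54 and -0.42. TNFRSF18 was at 551, 452 and 316 CPM in naïve, sham and SCI members (SCI over naïve -0.80, 95% counting interval -0.99 to -0.61), and CTLA4 at 174, 143 and 103 CPM (-0.76, -1.11 to -0.42). FANK1 was at 97.4, 73.2 and 39.3 CPM (-1.30, -1.86 to -0.79), coagulation factor V (F5) at 94.2, 81.0 and 39.3 CPM (-1.25, -1.81 to -0.74), and HPGD, which degrades prostaglandin E2, at 336, 376 and 215 CPM (-0.64, -0.88 to -0.41). In each of these SCI was the lowest library.

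Other identity genes were at similar levels in the 3 libraries. IL2RA was at 217, 226 and 186 CPM (SCI over naïve -0.22, -0.49 to 0.05), IKZF2 at 367, 361 and 354 CPM, and CD27 at 789, 781 and 754 CPM. PTGIR lay in the other direction, at 122, 122 and 154 CPM (SCI over naïve 0.34, 0.01 to 0.67). In SCI over naïve 2 of the 18 measured identity genes lay above 0. Over sham 3 of 20 did, the highest of them another gene at 0.67. At 2000 UMIs per cell CTLA4 was detected in 16.3%, 18.3% and 14.9% of members with overlapping intervals, whereas TNFRSF18 was detected in 49.3%, 47.6% and 33.9% (interval in SCI 27.9 to 40.2), beside 21.1%, 23.4% and 27.0% of B cells. The summed level of the whole list was 5362, 4971 and 4266 CPM in members, and 2156, 2148 and 1669 CPM in FOXP3-negative T cells. On counts per cell the median for SCI over naïve became 0.05.

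Homing and effector genes differed in both directions. CCR7 was at 177, 189 and 103 CPM in naïve, sham and SCI members (SCI over sham -0.88, -1.20 to -0.57), compared to -0.18 in FOXP3-negative T cells, and was detected in 21.5%, 23.7% and 11.98% of members at 2000 UMIs. The gene thus had its lowest level and its lowest share of cells in SCI blood. LGALS1 (galectin-1), a secreted lectin made by effector Tregs, was at 1637, 1205 and 2113 CPM (SCI over sham 0.81, 0.73 to 0.89). DUSP4, a phosphatase induced by activation, was at 53.1, 58.9 and 134 CPM (1.19, 0.84 to 1.54), LAIR2, a soluble collagen receptor, at 72.1, 45.1 and 105 CPM (1.23, 0.83 to 1.63), and CXCR3 at 112, 75.4 and 131 CPM (0.80, 0.47 to 1.13). The SCI library was the highest for these 4 genes and the sham library the lowest for 3 of them. In FOXP3-negative T cells all 4 were also higher for SCI over sham. LGALS1, DUSP4 and LAIR2 were higher by 0.55, 0.31 and 0.44, and CXCR3 by the levels of that class given above. DUSP4 was detected in 12.5%, 12.7% and 20.3% of members without thinning. The 10 members with the most DUSP4 UMIs held 37.3%, 44.9% and 50% of them.

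LAG3 was at 98.2, 39.4 and 8.63 CPM in naïve, sham and SCI members, and the Ikaros family factor IKZF3 (Aiolos) at 157, 140 and 47.9 CPM (SCI over sham -1.53, -2.01 to -1.11). In FOXP3-negative T cells IKZF3 differed by -0.22 for SCI over sham and by -0.71 for SCI over naïve, where members differed by -1.70. LAG3 differed by -1.07 in FOXP3-negative T cells and by -3.44 in members for SCI over naïve. LAG3 UMIs were counted in 10.2%, 8.19% and 2.85% of members, and 60.5% of those in naïve blood came from 10 cells. FAM118A, whose function is little known, ranked first by the naming rule, which leaves some gene classes unnamed whatever their ratio, at 19.8, 26.9 and 141 CPM (SCI over sham 2.38, 1.95 to 2.84), and differed as much in FOXP3-negative T cells (2.32). CISH was at 59.4, 63.7 and 35.5 CPM in members (SCI over sham -0.83, -1.41 to -0.32) but higher in SCI in FOXP3-negative T cells (0.48). BCL2 was at 91.1, 91.0 and 70.0 CPM in members and at 37.6, 37.3 and 65.1 CPM in FOXP3-negative T cells. The difference between the classes in these responses has no test with 1 library per condition.

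Immediate early genes, which respond within minutes to stimulation or cell handling, were higher in 4 of 15 cases and lower in 1 in SCI than in naïve members. In sham over naïve members 2 of 15 were higher. Over all genes measured, 3.02% were higher and 4.73% lower in SCI, and 3.85% were higher in sham. In FOXP3-negative T cells 3 of the 15 were higher in SCI and 2 in sham. JUN was at 94.2, 179 and 205 CPM (sham over naïve 0.92, 0.63 to 1.24; SCI over naïve 1.12, 0.79 to 1.46) and FOS at 26.1, 47.2 and 24.9 CPM. In FOXP3-negative T cells FOS was at 33.1, 56.3 and 93.0 CPM. All 14 measured heat shock genes lay above 0 in sham over naïve members (median 0.29), but only HSPH1 by 1.5-fold (111, 185 and 144 CPM). In FOXP3-negative T cells 12 of the 14 lay above 0 (median 0.17). Oxidative phosphorylation genes showed small differences in 1 direction, with 30 of 32 above 0 in sham over naïve (median 0.14) and 29 of 32 in SCI over naïve (median 0.18), none of them by 1.5-fold. Over all genes measured in members, 3726 of 7513 and 3009 of 6282 lay above 0. FOXP3-negative T cells moved in the same direction, with 23 and 25 of the 32 above 0 (medians 0.08 and 0.12). The TNF and NF-kB list held no gene past 1.5-fold in any of the 3 comparisons, and neither did the MHC class I list. Only 2.82% to 5.41% of all genes measured passed in a given direction, so a count of 0 in lists this short says little.

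**Figure D5:**
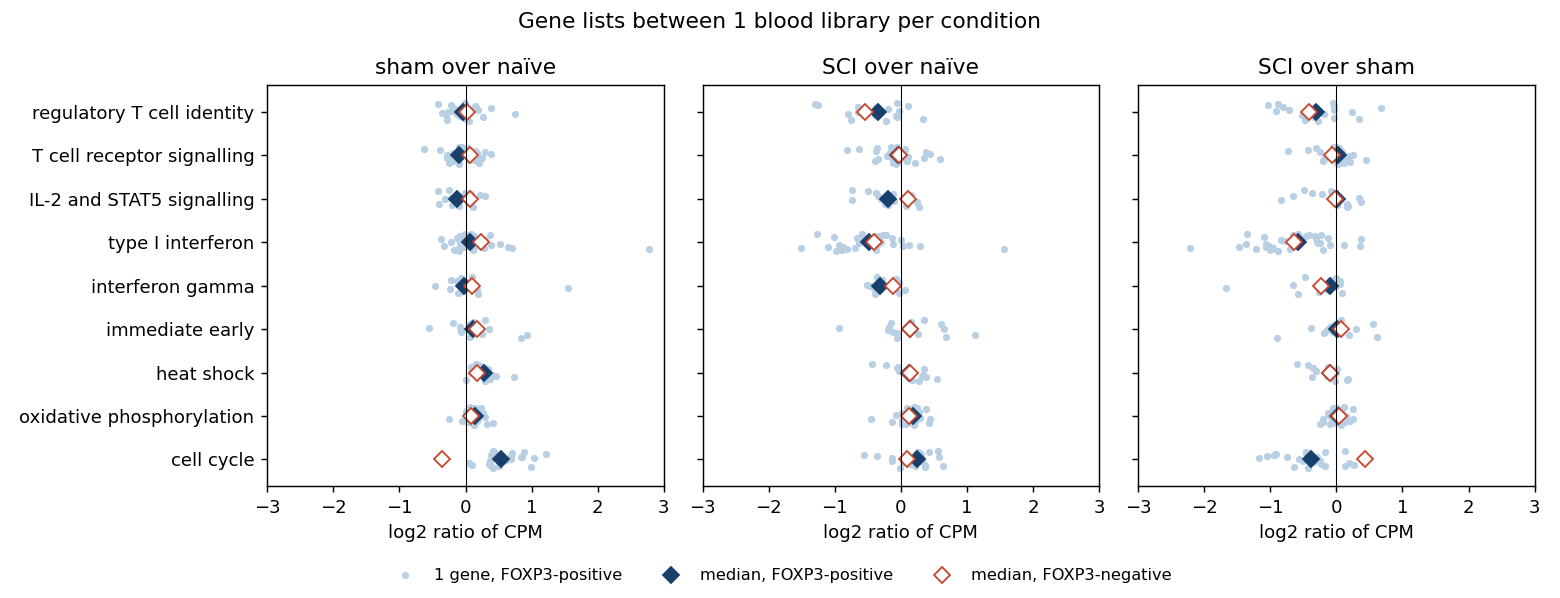
Log2 ratio of CPM between 2 libraries (x axis) for the genes of 9 lists in FOXP3-positive T cells (small points, 1 per gene), with the list median in FOXP3-positive (filled diamonds) and FOXP3-negative T cells (open diamonds). Type I interferon genes lie mostly below 0 for SCI over naïve and over sham in both classes, and the cell cycle medians of the classes lie on opposite sides of 0 in sham over naïve (0.54 and -0.36) and in SCI over sham (-0.38 and 0.43).

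Cell cycle genes were higher in the summed members of sham than of naïve blood, with 22 of 22 above 0 and 10 at least 1.5-fold (median 0.54), while FOXP3-negative T cells had a median of -0.36. UBE2C was at 65.7, 154 and 81.5 CPM, TOP2A at 117, 234 and 151 CPM and HMGB2 at 666, 1068 and 722 CPM. The share of members with 10 or more cell cycle UMIs was 13.0%, 12.9% and 12.2%, and such members were deeper in sham and SCI blood, with medians of 14060.5 and 13419 UMIs against 7973 in naïve blood. When each cell was given equal weight, the median for sham over naïve was 0.08 with 1 gene past 1.5-fold, and it was 0.11 after thinning, over the 11 genes still measured. MKI67 was detected in 7.90%, 7.33% and 4.96% of members at 2000 UMIs, with overlapping intervals.

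HLA class II transcripts were highest in sham members for HLA-DRA (242, 427 and 273 CPM) and HLA-DRB1 (261, 363 and 221 CPM), but HLA-DRA was detected in 24.5%, 23.1% and 19.8% of members at 2000 UMIs, so that the higher sum in sham came with no larger share of cells. Myeloid RNA moved with condition. The myeloid list summed to 1879, 780 and 32.6 CPM in members, and it was also lowest in SCI in FOXP3-negative T cells (1339, 1355 and 302 CPM). The 5 naïve, 4 sham and 1 SCI members with at least 3 myeloid UMIs held 98.5%, 97.6% and 29.4% of the myeloid UMIs of members. The lower values of S100A8 (415, 115 and 0 CPM), S100A9 (989, 367 and 11.5 CPM) and LYZ (221, 127 and 4.79 CPM) in SCI members thus rested on those cells, which had median depths of 13390, 18033.5 and 6817 UMIs. Without them, the interferon median for SCI over sham was -0.59 and that of the identity list -0.30. Plasma cell RNA summed to 594, 106 and 71.9 CPM in members, basophil and mast cell RNA to 34.8, 3.03 and 40.3 CPM, and erythroid and platelet RNA to at most 2.38 CPM, with HBB and PPBP at 0.

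The 14 members of the injured cord allow a description only. Relative to SCI blood, their summed UMIs held more TNFRSF18 (1022 against 316 CPM) and ENTPD1 (491 against 72.9 CPM), and at 2000 UMIs per cell these were detected in 71.4% against 33.9% and in 42.9% against 7.85% of members. CTLA4 was also higher as a sum (459 against 103 CPM), but at equal depth it was detected in 14.3% of cord members (2 of 14) and 14.9% of SCI blood members, and IL2RA in 14.3% and 22.3%. CXCR6 (201 against 13.4 CPM) was likewise seen in 2 of 14 cord members at that depth. CCR7 (48.3 against 103 CPM) and S1PR1, the receptor for egress from tissue (8.04 against 63.3 CPM), were lower. ISG15 was at 354 CPM, below all 3 blood libraries. The immediate early list summed to 10546 CPM in cord and 5168 CPM in SCI blood members, with FOS at 1166 against 24.9 CPM, and FOXP3-negative T cells gave similar sums of 9382 and 5107 CPM. Cord cells were digested with papain and enriched on magnetic columns before sorting whereas blood cells were not, and tissue and preparation cannot be told apart. The cord members also held basophil and mast cell RNA (CLC at 2703 CPM against 3.84 CPM in SCI blood), whose part in these values was not tested.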

How the data were processed

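The deposited files hold UMI counts per gene and cell barcode, made by the authors with Cell Ranger 3.1.0 on a combined human and mouse genome (hg38 and mm10 per the labels) and not normalized. Cells were selected by the definition given above, and no further doublet filter was applied; Scrublet (scanpy 1.11.5) marked 10, 18, 8 and 0 members of naïve, sham and SCI blood and cord, and their removal was an alternative. Members, markers and gene lists (18 pathway lists and 7 lists of other cell types) were chosen with earlier results of these data known.

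Counts were summed per library and class. Members were tested against FOXP3-negative T cells of the 3 blood libraries with edgeR 4.0.16 (R 4.3.3; TMM, filterByExpr, quasi-likelihood test, library as block, Benjamini-Hochberg adjustment at 0.05). Ribosomal and mitochondrial genes were left out of the test and of CPM totals. Gate genes were left out of the test and of the genes counted between conditions, but not of CPM totals. The block is the library itself, since both sums come from it. The labels do not say that the libraries hold separate donors, so the p-values measure only the spread between these pooled libraries. Between conditions no test was made. Log2 ratios of CPM (0.5 counts added) carry exact conditional binomial 95% intervals. To compare shares of cells, each cell was thinned to 2000 UMIs and shallower cells were left out, which were 26, 0 and 4 members of naïve, sham and SCI blood. Intervals cover counting error only.

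Genes were named if they belonged to a list or if, in a given comparison, they ranked within the top 12 or bottom 12 by log2 value, with 100 or more counts in all and 50 CPM on one side (for the test of members, also past the test). Gate, ribosomal, mitochondrial and antigen receptor variable genes and a short list of further genes were not named, and results of single genes that entered the lists and their counts are in some cases not reported here. Scripts were tested on simulated data. Alternatives covered normalization (with DESeq2 1.42.0), filters, depth, doublets, the FOXP3 threshold, the comparison cells and each library left out.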

Additional observations from a re-analysis of the deposited data

How the results depend on the processing

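The order of the member shares (sham, naïve, SCI blood from high to low) held under every alternative run, with values in naïve, sham, SCI blood and cord of 5.44%, 6.45%, 2.64% and 7.04% after thinning to 2000 UMIs, 3.60%, 4.20%, 1.85% and 6.45% after thinning to 1000 UMIs (added after seeing the data), 2.66%, 4.48%, 1.27% and 10.1% with at least 2 FOXP3 UMIs, 5.96%, 9.48%, 3.95% and 11.02% of all human cells, and 11.02%, 15.7%, 7.92% and 24.1% of CD3-positive cells without CD8 and MS4A1. Against FOXP3-negative T cells, 602 genes were higher and 435 lower with DESeq2's Wald test, 736 higher after thinning, and 816 to 1051 higher and 671 to 857 lower with 1 library left out. Without the library block 831 were higher and 635 lower. No paired analysis was possible because the conditions share only replicate number 1, with 1 library each. Between conditions, counts per cell gave 4315 higher and 16 lower genes in sham over naïve, 1490 and 60 in SCI over naïve and 67 and 1008 in SCI over sham. A minimum of 20 counts gave 576 and 575, 529 and 695, and 520 and 765. Thinning gave 137 higher in sham over naïve and 242 lower in SCI over sham, at least 2 FOXP3 UMIs 108 higher in SCI over naïve, and leaving out members with cell cycle UMIs (added after seeing the data) 169 higher in sham over naïve.

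Signs turned in a few cases, whose cause was not tested unless the construction shows it. On counts per cell, which carry the depth difference, the identity list for SCI over naïve was at 0.051, the PD-1 helper list for sham over naïve at 0.28 and GNLY at 0.014. With each library left out, IGLC3 ranged from -5.49 to 0.24 and JCHAIN from -5.12 to 0.37, both above 0 without the naïve library. With DESeq2 IGHA1 was at 0.33. Against FOXP3-negative cells with CD4, FCER1A was at 0.84, HDC at 0.14, HLA-DRA at -0.087, IGHA1 at 0.27, IGKC at 0.39 and MS4A2 at 0.21. With at least 2 FOXP3 UMIs KLF2 at -0.017, ZFP36L1 at -0.0045 and TYMS at -0.38 (SCI over naïve). FCER1G was at 0.27 with equal weight per cell (SCI over sham) and at 0.23 without Scrublet-marked cells (sham over naïve). One library per condition, a single FOXP3 UMI in most members and 14 cord cells limit what these data can resolve.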
